A study of Homo sapiens with 4 samples.

Results

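The 10 mRNAs described here encode the machinery that removes the cap of an mRNA, degrades its body from the 5′ end and trims its poly(A) tail through the PAN complex. They were chosen by gene symbol (DCP1A, DCP1B, DCP2, EDC3, EDC4, XRN1, XRN2, PATL1, PAN2 and PAN3). All 10 were among the 36203 genes of the table, and all 10 were among the 12848 genes tested. The unit of the values is not labelled. They were taken as FPKM, which divide the reads of a gene by its length and by the total of the library. RNA immunoprecipitation followed by sequencing (RIP-seq) recovers a protein with an antibody and reads the RNA that comes with it. There were 2 RIP libraries made with an antibody from Santa Cruz Biotechnology against YTHDF3, a cytoplasmic protein that binds N6-methyladenosine (m6A) in mRNA, and 2 input libraries from cells of the same kind, for which the labels name no antibody. No drug, knockdown or other genotype is named for either group, and the cells were grown in DMEM with serum.

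The cells were a human breast cancer line, MDA-MB-231 by the sample labels and its brain-seeking derivative MDA-MB-231Br by the growth text. Of the genes fixed as markers of the line, VIM, CD44, EGFR and AXL were at 75.3 FPKM or more in every library, and SPARC was at or near 0. Of those expected to be low or absent, ESR1 and CDH1 were listed at 0 in every library. PGR was at 0.118 FPKM or less, and ESRP1 was at 0.781 to 0.861 FPKM. Among markers of other cell types, PTPRC and ALB were listed at 0, and PECAM1 was at 0.118 to 0.690 FPKM. The extraction text speaks of embryos and of an m6A antibody, so the procedure used is not settled. Nothing in the labels ties the 2 libraries of a group to separate cultures, and the p-values then describe only the spread between libraries, which may be technical. A pull-down with a control antibody is not analysed here. A difference from input is therefore a difference in recovered RNA and not a measure of binding.

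An mRNA usually loses its poly(A) tail before its cap. The PAN complex and the CCR4-NOT complex shorten the tail, DCP2 with its coactivators removes the cap, and the exonuclease XRN1 then degrades the exposed RNA. The m6A readers of the YTHDF family are known for their part in the translation and decay of methylated mRNA, and these data show the mRNAs that encode the decay factors themselves, not the activity of the proteins.

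The motif GGACT, read as GGACU in RNA, is a frequent sequence context of m6A, and m6A is known to be dense near stop codons. The members whose nearest GGACT lay within 400 bases of the end of the coding sequence are shown because members on both sides of the RIP comparison carry it there. The sequences are from GENCODE release 29 transcripts (GRCh38), written 5′ to 3′ in DNA letters with the motif in capitals, all from genes on the minus strand. PAN2 was higher in RIP, XRN1 was lower, and DCP1A and EDC3 did not pass the test.
PAN2, chr12:56318266-56318290: gcagaaagatGGACTggaaggtgcc
XRN1, chr3:142311210-142311234: cagtatcagtGGACTaaacattaaa
DCP1A, chr3:53287230-53287254: tcactttcaaGGACTtacagaggag
EDC3, chr15:74632579-74632603: tgcgcaggcaGGACTctgctgtccc
The central A of this match lay 73 bases before the last coding base in PAN2, and 292, 341 and 24 bases after it in the 3′ UTRs of XRN1, DCP1A and EDC3. Matches were sought on the transcript strand only, and overlapping matches were counted. Of 19214 coding transcripts, 1 per gene, 89.1% held GGACT and 54.3% held it within 400 bases of the coding end. A match is not a methylated site, and m6A was not measured here.

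The libraries differed in ways that bear on every value. RIP 2 held 35.9% of its length-weighted signal on chromosome 1, against 10.6% in RIP 1 and 9.2% and 9.48% in the inputs. None of the 10 genes lies on chromosome 1 or 10, where RIP 2 was raised. Scaling to the library total would lower the values of other chromosomes in RIP 2, and its part in the values here was not tested. On the chromosomes of the 10 genes, the median gene differed between RIP 2 and RIP 1, as a log2 difference, by values between -0.91 (chromosome 16) and -0.34 (chromosome 13). The FPKM of a library summed to about 301000 in each RIP library, against 700000 and 691000 in the inputs. With the commonest low value taken as 1 read, the relative depth was about 10400000 reads in RIP 1, 3110000 in RIP 2, 6140000 in input 1 and 7310000 in input 2. Under that assumption the thinnest values here rest on about 24.2 reads (PAN2 in input 2) and 26.5 reads (DCP1B in RIP 2). The YTHDF3 mRNA itself reached 75.8 FPKM in RIP 1 and 72.4 FPKM in RIP 2, against 10.3 FPKM in input 1 and 13.8 FPKM in input 2.

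The 10 mRNAs did not move in 1 direction when RIP was compared with input. Both mRNAs of the PAN deadenylase were higher in RIP, and both 5′ exonuclease mRNAs and PATL1 were lower. DCP2, DCP1A, DCP1B, EDC3 and EDC4 did not pass the threshold, set at 0.05 for the Benjamini-Hochberg adjusted p of limma, adjusted over all genes tested. The count was thus 2 of 10 higher and 3 of 10 lower. PAN2 was under 1 FPKM in both inputs and passed the filter of 1 FPKM in 2 libraries only through RIP, so its direction was fixed. Over all genes tested, 15.4% were higher and 24.3% lower (39.7% either way), so the share called among the 10 is near the background and is no result about them as a set. Both RIP libraries were above both inputs for 4 members (PAN2, PAN3, DCP1B and EDC4) and below both for 4 (XRN1, XRN2, PATL1 and DCP2), against 35.7% and 40.1% of all genes tested. The median log2 fold change was 0.18 for the 10 (0.059 without RIP 1 and 0.054 without RIP 2) and -0.10 for all genes tested. The balance over all genes depended on scaling, with 1981 higher and 3126 lower on the deposited values and 3085 higher and 2831 lower after quantile normalization, where the median gene was at 0.13. There 3 members were higher (DCP1B was added) and 3 lower. With every library scaled to the same FPKM sum, an alternative chosen after seeing the data, the median gene was at 0.87, 4592 genes were higher and 1555 lower. PAN2, PAN3 and DCP1B were then higher and no member was lower, so that the calls of XRN1, XRN2 and PATL1 as lower depend on the scaling. Each of the 10 kept the sign of its log2 fold change under every scaling tried. Under each scaling XRN1, XRN2, PATL1 and DCP2 were below the median gene and the other members above it. Fold changes were computed on log2(FPKM + 1), and the added 1 makes them too small for weakly expressed genes. With either input left out, limma called no gene of the table and no member at all. At an unadjusted p under 0.05, 737 genes were then higher and 2299 lower without input 1, and 608 and 2257 without input 2. XRN1 was among them in both cases and PAN2 without input 1, and the other members were not. With 1 library in an arm, that library is assumed to vary like the others.

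**Figure D1:**
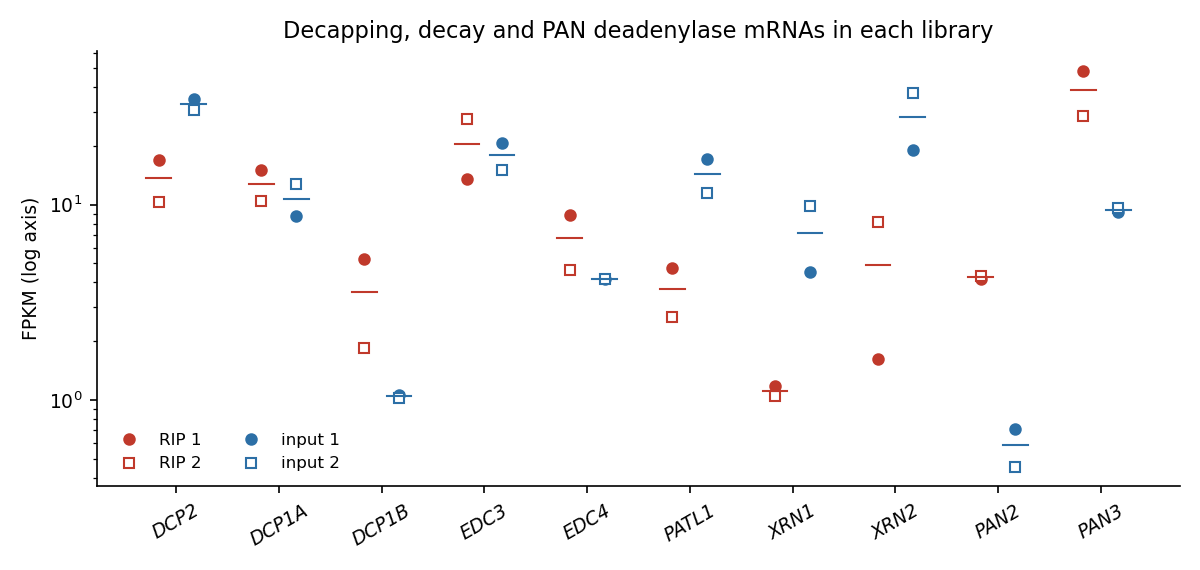
FPKM of each mRNA (log axis) in the 2 RIP libraries (red) and the 2 input libraries (blue), with a line at each group's mean. PAN2, PAN3, DCP1B and EDC4 lie higher in both RIP libraries than in both inputs. XRN1, XRN2, PATL1 and DCP2 lie lower, and DCP1A and EDC3 overlap.

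PAN3 and PAN2 were the 2 members that passed as higher. PAN3 encodes the adaptor subunit that binds the poly(A)-binding protein and carries PAN2 to the tail (ENSG00000152520, chromosome 13, 28138506 to 28295335). PAN3 stood at 48.6 and 28.4 FPKM in the RIP libraries, against 9.21 and 9.65 FPKM in the inputs. The inputs lie close together and both RIP libraries lie well above them, with a wider gap between the RIP libraries. The log2 fold change was 1.87 (SE 0.49, 95% interval 0.69 to 3.05, adjusted p = 0.0288 in limma), and the ratio of mean FPKM was 4.08. Without RIP 1 the log2 fold change was 1.49, and without RIP 2 it was 2.25.

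PAN2 encodes the catalytic subunit, an exonuclease specific for poly(A) (ENSG00000135473, chromosome 12, 56316223 to 56334053). PAN2 reached 4.17 FPKM in RIP 1 and 4.30 FPKM in RIP 2, against 0.713 FPKM in input 1 and 0.455 FPKM in input 2. The RIP libraries were nearly equal, and both inputs were below the 1 FPKM of the filter, so PAN2 entered the test only through the RIP libraries. The log2 fold change came to 1.73 (SE 0.37, 95% interval 0.83 to 2.63, adjusted p = 0.0179 in limma), and the ratio of mean FPKM was 7.25. PAN2 shares up to 114 bases of an exon on the same strand with CNPY2, a neighbouring gene with 8.37 and 5.12 FPKM in RIP and 32.3 and 20.8 FPKM in input, so the values of the 2 genes lie in opposite directions. With no filter on low values, both PAN mRNAs missed the threshold (adjusted p = 0.0502 for PAN2 and 0.0511 for PAN3 in limma). They also missed it without input 1 (adjusted p = 0.187 and 0.24) and without input 2 (adjusted p = 0.234 and 0.252).

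Both exonuclease mRNAs were lower in RIP. XRN1 encodes the cytoplasmic enzyme that degrades decapped mRNA (ENSG00000114127, chromosome 3, 142306607 to 142448062). XRN1 stood at 1.17 and 1.05 FPKM in the RIP libraries, against 4.53 and 9.81 FPKM in the inputs. The RIP libraries were nearly equal, and input 2 was above input 1, which was above both. Its log2 fold change was -1.87 (SE 0.50, 95% interval -3.09 to -0.66, adjusted p = 0.0308 in limma).

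XRN2 encodes the nuclear enzyme that acts in transcription termination and RNA processing (ENSG00000088930, chromosome 20, 21303304 to 21389827). XRN2 reached 1.62 FPKM in RIP 1 and 8.14 FPKM in RIP 2, against 19.1 FPKM in input 1 and 37.4 FPKM in input 2. The groups do not overlap, but the libraries of each group stand apart. XRN2 was higher in RIP 2 than in RIP 1 by 1.80 on the log2 scale, while the median gene of chromosome 20 was at -0.64. The log2 fold change was -2.51 (SE 0.73, 95% interval -4.26 to -0.75, adjusted p = 0.0378 in limma). It was -3.41 without RIP 2 and -1.61 without RIP 1. XRN2 missed the threshold after scaling to genes outside chromosomes 1 and 10 (adjusted p = 0.0717), with 0.1 in place of 1 added to each value (0.0578) and with no filter (0.0825), and XRN1 with no filter (0.0754). With libraries scaled to equal FPKM sums the log2 fold change was -1.02 for XRN1 (adjusted p = 0.138 in limma) and -1.46 for XRN2 (0.167). Without input 1 the adjusted p was 0.163 for XRN1 and 0.222 for XRN2, and without input 2 it was 0.218 and 0.329.

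PATL1 encodes the protein that links the shortened tail to the decapping complex in processing bodies (ENSG00000166889, chromosome 11, 59636716 to 59668980). PATL1 stood at 4.76 and 2.65 FPKM in the RIP libraries, against 17.2 and 11.5 FPKM in the inputs. Both RIP libraries were below both inputs. The log2 fold change came to -1.72 (SE 0.53, 95% interval -2.99 to -0.45, adjusted p = 0.0432 in limma). PATL1 missed the threshold with 0.1 in place of 1 added to each value (adjusted p = 0.054), with no filter (0.0749), without input 1 (0.334), without input 2 (0.275) and with equal FPKM sums (log2 fold change -0.68, adjusted p = 0.331).

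**Figure D2:**
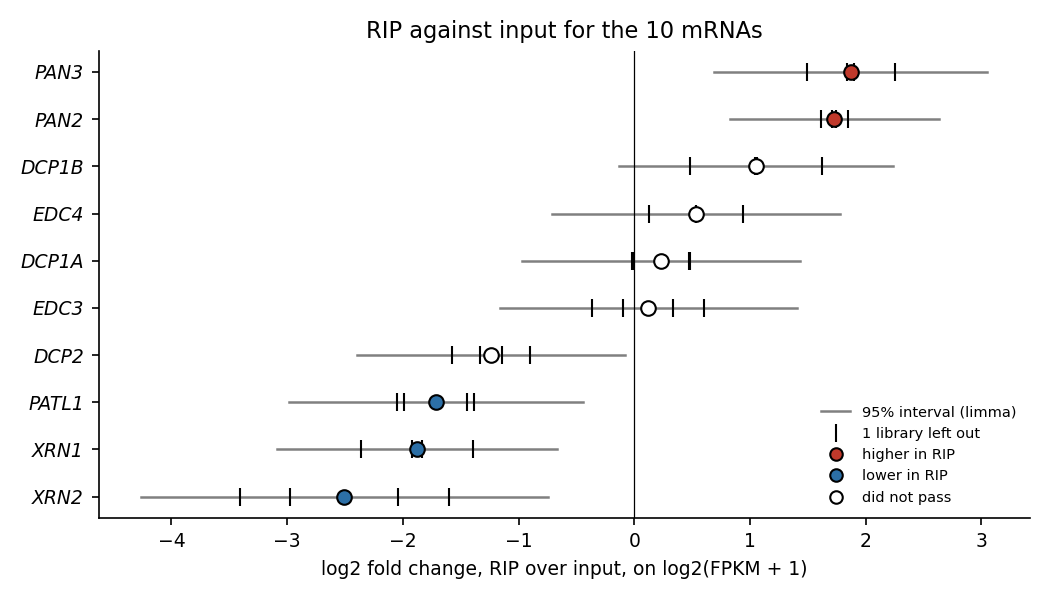
Log2 fold change of RIP over input on the log2(FPKM + 1) scale for each mRNA, with the 95% interval from limma (line) and the estimates with 1 library left out (ticks). PAN3 at 1.87 and PAN2 at 1.73 are at the top, XRN2 at -2.51 is at the bottom, and the intervals of DCP1B, EDC4, DCP1A and EDC3 include 0.

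DCP2 encodes the enzyme that hydrolyses the cap (ENSG00000172795, chromosome 5, 112976702 to 113020970). DCP2 reached 16.97 FPKM in RIP 1 and 10.3 FPKM in RIP 2, against 34.8 FPKM in input 1 and 30.5 FPKM in input 2, with the inputs close together and both RIP libraries below them. Its log2 fold change of -1.24 (SE 0.48, 95% interval -2.40 to -0.08) missed the threshold over all genes (adjusted p = 0.0794 in limma). Without RIP 1 it was -1.57, without RIP 2 it was -0.90, and with equal FPKM sums it was -0.090.

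The decapping coactivators DCP1A and DCP1B are paralogs that bind DCP2 and stimulate it. DCP1A (ENSG00000272886, chromosome 3, 53283428 to 53347610) stood at 15.0 and 10.4 FPKM in the RIP libraries, against 8.70 and 12.7 FPKM in the inputs, and the groups overlap. Its log2 fold change was 0.23, with a 95% interval of -0.97 to 1.43 (adjusted p = 0.725 in limma). DCP1B (ENSG00000151065, chromosome 12, 1946054 to 2004535) reached 5.29 FPKM in RIP 1 and 1.85 FPKM in RIP 2, against 1.06 FPKM in input 1 and 1.03 FPKM in input 2. Both RIP libraries were above the inputs, RIP 1 by much more. The log2 fold change was 1.05, with a 95% interval of -0.13 to 2.23 (adjusted p = 0.124 in limma). DCP1B passed in limma after quantile normalization (adjusted p = 0.0236, log2 fold change 1.54) and with equal FPKM sums (adjusted p = 0.0363, 1.80). Its log2 fold change was 1.62 without RIP 2 and 0.48 without RIP 1.

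EDC3 and EDC4 encode scaffold proteins that enhance decapping. EDC3 (ENSG00000179151, chromosome 15, 74630558 to 74696292) stood at 13.5 and 27.5 FPKM in the RIP libraries, against 20.7 and 15.1 FPKM in the inputs. RIP 2 was the highest of the 4 libraries and RIP 1 the lowest. The log2 fold change came to 0.12, with a 95% interval of -1.16 to 1.40 (adjusted p = 0.866 in limma). EDC3 shares up to 446 bases of an exon on opposite strands with CLK3, and whether counting used strand is not given in the sources used here. EDC4 (ENSG00000038358, chromosome 16, 67873023 to 67884503) reached 8.90 FPKM in RIP 1 and 4.64 FPKM in RIP 2, against 4.15 FPKM in input 1 and 4.17 FPKM in input 2. RIP 2 lay just above the inputs and RIP 1 well above them. Its log2 fold change was 0.53, with a 95% interval of -0.71 to 1.78 (adjusted p = 0.428 in limma). It was 0.13 without RIP 1 and 0.94 without RIP 2. With equal FPKM sums it was 1.53 for EDC4, 1.26 for EDC3 and 1.34 for DCP1A, and none of them passed. EDC4 shares up to 548 bases of an exon with the noncoding gene AC040162.3 on its own strand, and XRN2 and PATL1 share up to 170 and 64 bases with antisense genes, so part of their reads cannot be assigned with certainty. For DCP1A, DCP1B, EDC3 and EDC4 the intervals leave room for differences of 2-fold and more.

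FPKM is per length, so levels of different members can be set side by side. The summed FPKM of the 10 was 120.0 and 99.2 in RIP, against 120.2 and 132.4 in input. This is 0.0398% and 0.0329% of all FPKM in the RIP libraries and 0.0172% and 0.0192% in the inputs. The summed FPKM of the 10 was thus no larger in RIP, and the larger share goes with smaller library sums (301000 against 700000 and 691000). With equal FPKM sums the median log2 fold change was 1.30 for the 10 and 0.87 for all genes tested. The makeup of the summed FPKM of the 10 differed between the groups. PAN2 and PAN3 made up 44.0% and 32.9% of that sum in RIP, against 8.26% and 7.64% in input. XRN1 and XRN2 made up 2.33% and 9.26% in RIP, against 19.7% and 35.7% in input. DCP2, DCP1A and DCP1B together made up 31.1% and 22.8% in RIP, against 37.1% and 33.4% in input. Such shares do not change when a library is multiplied by a constant, but a rise of one member lowers the others.

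**Figure D3:**
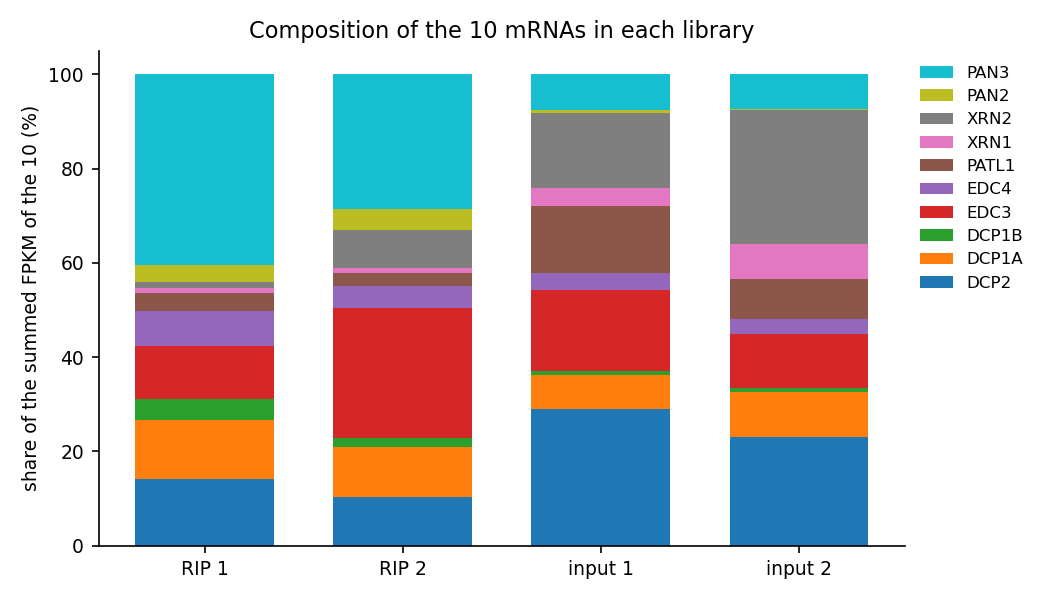
Share (%) of the summed FPKM of the 10 mRNAs held by each of them, in the 2 RIP libraries and the 2 inputs. PAN3 takes 40.5% and 28.6% in RIP, against 7.67% and 7.29% in input, and XRN2 takes 1.35% and 8.21% in RIP, against 15.9% and 28.3% in input.

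The order of the levels differed between the groups. In RIP the mean FPKM was highest for PAN3 (38.5), then EDC3 (20.5), DCP2 (13.6), DCP1A (12.7), EDC4 (6.77), XRN2 (4.88), PAN2 (4.24), PATL1 (3.70), DCP1B (3.57) and XRN1 (1.11). Ranges over the 2 libraries were apart between PAN3 and EDC3, between DCP1A and EDC4 and between DCP1B and XRN1, and the other neighbours overlapped. In input the order was DCP2 (32.7), XRN2 (28.3), EDC3 (17.9), PATL1 (14.3), DCP1A (10.7), PAN3 (9.43), XRN1 (7.17), EDC4 (4.16), DCP1B (1.04) and PAN2 (0.584). There the ranges of neighbours overlapped from DCP2 down to XRN1, and were apart below it. The median gene tested had a mean of 8.31 FPKM in RIP and 9.05 FPKM in input.

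Plain FPKM ratios of members within a library, which do not change when a library is multiplied by a constant, are given for 5 pairs, and the tests used log2(FPKM + 1). With 2 libraries against 2, the exact two-sided permutation test cannot go below p = 0.333, so no pair could pass. DCP2 over DCP1A was 1.13 and 0.983 in RIP, against 4.0 and 2.40 in input. The enzyme mRNA was thus about level with its coactivator in RIP and above it in input, and the groups did not overlap (exact p = 0.333, adjusted over the pairs 0.833). DCP1A over DCP1B was 2.84 and 5.64 in RIP, against 8.20 and 12.4 in input, and also did not overlap (exact p = 0.333, adjusted 0.833). XRN1 over XRN2 was 0.723 and 0.129 in RIP, against 0.237 and 0.262 in input, so the inputs nearly matched and lay between the RIP libraries (exact p = 1). EDC3 over EDC4 was 1.52 and 5.92 in RIP, against 4.99 and 3.62 in input (exact p = 1). PAN3 over PAN2 was 11.7 and 6.60 in RIP, against 12.9 and 21.2 in input. These plain ratios were lower in RIP by 0.92 on the log2 scale (as a difference, -0.92), and with 1 FPKM added to each value the difference was 0.14. PAN2 was under 1 FPKM in both inputs.

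The other genes of the pathway were taken from a list of 28 cofactors, of which 26 were tested. RIP was higher for 3 of these and lower for 9, and their median log2 fold change was -0.98, against 15.4% higher and 24.3% lower and a median of -0.10 over all genes tested. The number higher was 5 after quantile normalization, after scaling outside chromosomes 1 and 10, with the replicate block and without RIP 2, and 6 without RIP 1. With equal FPKM sums 6 were higher and 4 lower, and with no filter none was higher. The subunits LSM1 to LSM7 form the ring that binds shortened tails with PATL1, and 6 of the 7 were lower, with a median of -2.87. With equal FPKM sums LSM2, LSM3, LSM5 and LSM7 passed as lower and LSM4 and LSM6 did not. LSM2 stood at 5.16 and 2.57 FPKM in the RIP libraries, against 54.6 and 38.9 FPKM in the inputs (log2 fold change -3.33, adjusted p = 0.00983 in limma). LSM3 (-2.74), LSM7 (-2.87), LSM5 (-3.32) and LSM6 (-2.97) followed by p. LSM3 was at 0.921 FPKM in RIP 1 and 0.507 FPKM in RIP 2. It passed the filter of 1 FPKM only through the inputs, so its direction was fixed. LSM5 was listed at 0 in RIP 2. LSM1, the subunit that sets the cytoplasmic ring apart from the nuclear one, reached 7.84 FPKM in RIP 1 and 4.29 FPKM in RIP 2, against 19.4 FPKM in input 1 and 18.2 FPKM in input 2, and missed the threshold (-1.53, adjusted p = 0.0521 in limma). Exon lengths of these 7 genes ran from 1077 to 4701 bases, and LSM3, LSM5 and LSM6 are the ones over 3369 bases. Of coding genes tested with at most 3369 bases 33.8% were lower in RIP, and of those with 3370 to 5178 bases 21.2%. Exon length joins the exons of all transcripts of a gene, and the transcript lengths of the ring were not compared. Across coding genes tested, the log2 fold change correlated more with transcript length (Pearson's r = 0.392) than with exon length (0.258). With these genes divided into 10 bins by transcript length, the median was -2.06 in the shortest bin. The part of length in this result was not tested.

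Cofactors that were higher included NKRF and CDKN2AIP, which encode proteins that bind XRN2. NKRF, a repressor that binds XRN2, stood at 10.5 and 18.3 FPKM in the RIP libraries, against 1.56 and 3.44 FPKM in the inputs (log2 fold change 2.15, adjusted p = 0.0286 in limma). CDKN2AIP stood at 31.9 and 29.02 FPKM in the RIP libraries, against 8.25 and 11.7 FPKM in the inputs (1.53, adjusted p = 0.0414 in limma). Its paralog CDKN2AIPNL went the other way (-1.996, adjusted p = 0.0223 in limma). The nearest misses after LSM1 were PNRC1 (1.42, adjusted p = 0.0524 in limma) and PNRC2 on chromosome 1 (-2.12, adjusted p = 0.0759 in limma), which both encode small proteins that bind DCP1A. CDKN2AIPNL, LSM14A (-1.48, adjusted p = 0.0395 in limma) and the deadenylase PARN (-1.60, adjusted p = 0.0462 in limma) were the lower cofactors outside the ring, named after their values were seen.

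The other complexes that shorten or degrade mRNA are given for scale. Of 11 CCR4-NOT subunits, 1 was higher and 3 were lower in RIP, and the median log2 fold change was -0.29. These shares are near the 15.4% and 24.3% over all genes tested and are no result about the complex. With equal FPKM sums, and with no filter, no subunit was lower. CNOT7, a catalytic deadenylase subunit, had -2.69 (adjusted p = 0.0246 in limma) and CNOT10 had -2.10 (adjusted p = 0.031 in limma). CNOT6L (-1.29) was the other one that was lower and CNOT4 (1.48, adjusted p = 0.0467 in limma) the one that was higher, both named after their values were seen. CNOT4 missed the threshold with 0.1 or 0.5 in place of 1 added to each value, with no filter, after scaling outside chromosomes 1 and 10, with no trend and without either input. Of 12 RNA exosome subunits, which act from the 3′ end, 1 was higher and 5 lower, with a median of -0.95. The number higher was 4 after scaling outside chromosomes 1 and 10 and with equal FPKM sums. It was 2 after quantile normalization and without the genes of chromosomes 1 and 10. In these fits the number lower was 5, except for 4 with equal FPKM sums and without the genes of chromosomes 1 and 10. The number higher thus depended on the scaling more than the number lower did. EXOSC8 had -4.50 (adjusted p = 0.00873 in limma) and EXOSC9 had -2.63 (adjusted p = 0.0133 in limma). EXOSC8 was at 0.144 FPKM in RIP 1 and listed at 0 in RIP 2. It passed the filter of 1 FPKM only through the inputs, so its direction was fixed. DIS3L, a cytoplasmic catalytic subunit named after its value was seen, was higher (1.83, adjusted p = 0.0291 in limma). The cofactor, CCR4-NOT and exosome calls were also lost with either input left out.

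**Figure D4:**
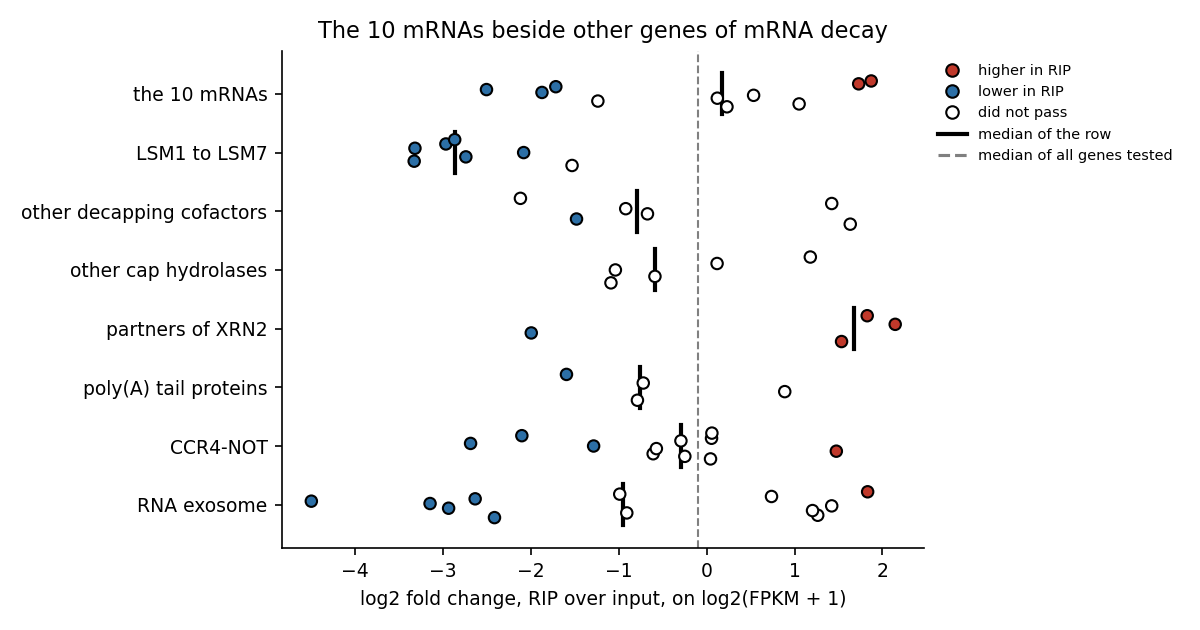
Log2 fold change of RIP over input (log2(FPKM + 1) scale) for the 10 mRNAs and for the lists of cofactors, CCR4-NOT and RNA exosome genes, 1 point per gene, with the median of each row and a dashed line at the median of all genes tested (-0.10). The 10 mRNAs spread from -2.51 to 1.87, and the LSM1 to LSM7 row lies wholly below the dashed line.

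The transcripts of the 10 genes differ in length and composition, which the choice of members did not use. Across 10847 coding genes tested, the log2 fold change correlated with transcript length with Pearson's r = 0.392 and Spearman's rho = 0.35. These are correlations across genes, which share the libraries and are not independent replicates. XRN1 has the longest transcript of the 10, 10143 bases, and DCP2 follows with 8947 bases. The 10847 genes were divided into 10 bins by transcript length. Both transcripts are in the longest bin, where the interquartile range of log2 fold changes ran from -0.24 to 1.62, and both lay below it. XRN2 with 3437 bases and PATL1 with 4072 bases also lay below the interquartile ranges of their bins, which began at -0.81 and -0.84. PAN3 (4940 bases) and PAN2 (5372 bases) lay above the interquartile range of their bin, which ended at 1.49. DCP1A, EDC3 and EDC4 lay inside the ranges of their bins, and DCP1B, at 2086 bases the shortest of the 10, was at its upper edge (1.05 against 1.04).

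**Figure D5:**
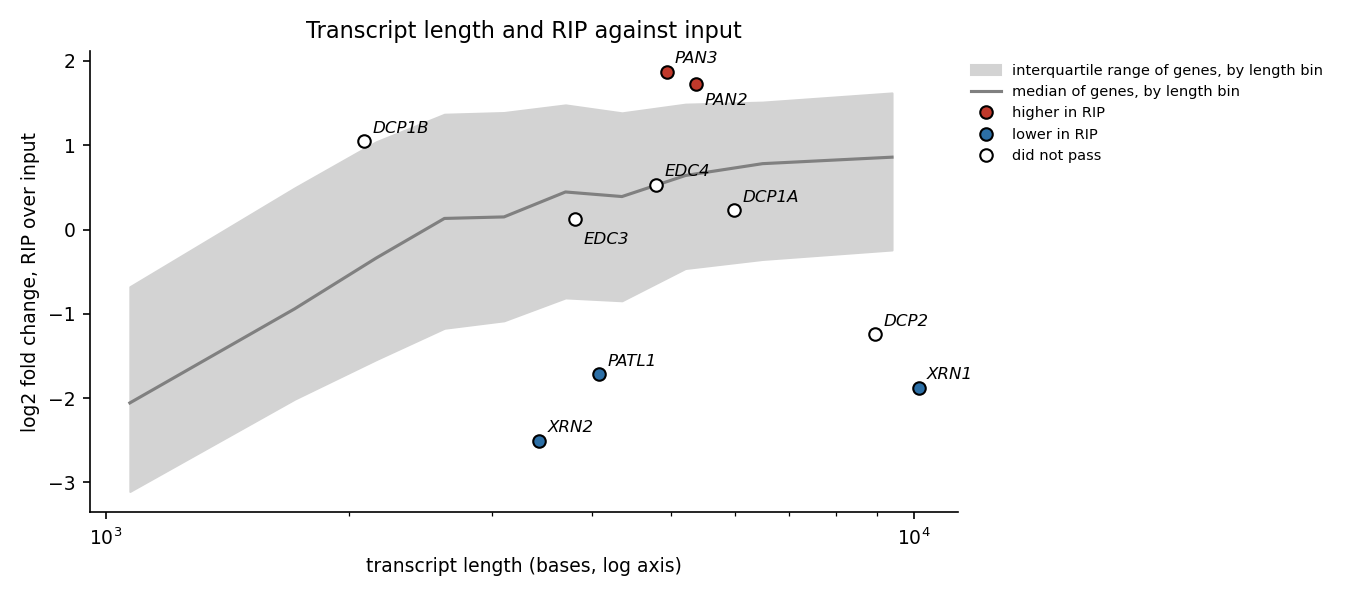
Log2 fold change of RIP over input against the length of the transcript in bases (log axis). The grey line and band give the median and the interquartile range of 10847 coding genes in 10 bins of length, and the points are the 10 mRNAs. XRN1 and DCP2 are the longest and lie below the band, and PAN2 and PAN3 lie above it.

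GGACT was similarly uneven among the 10. PAN2 held 13 matches, 2.42 per kilobase, which is above 96.2% of coding genes tested. XRN1 held 11 matches (1.08 per kilobase), EDC3 and EDC4 held 6 each, DCP2 held 4, DCP1A and PATL1 held 3 each, XRN2 and PAN3 held 2 each, and DCP1B held none in the 2086 bases searched. PAN3, with the largest log2 fold change of the 10, had 0.405 per kilobase, above 15.6% of genes. GC content also differed between the PAN mRNAs, at 38.4% in PAN3 and 50.7% in PAN2, while XRN1 had 37.3%. Among coding genes tested, the 6091 with GGACT within 400 bases of the coding end had a median log2 fold change of 0.29. The 4756 without it had -0.15. Across these genes the log2 fold change correlated with GGACT per kilobase with Pearson's r = 0.109, against 0.392 for transcript length. The split took no account of length, and the part of length in it was not tested.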

How the data were processed

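The authors deposited 1 table of FPKM values per gene for 2 RIP and 2 input libraries. The unit is not labelled, and FPKM was taken from the values. HISAT2 and GRCh38 (hg38) are named in the submitters' processing notes, and the sources used here give no counting program, annotation or use of strand. The table's 36217 rows held 14 repeats of an identifier, which were removed, and 36125 of the 36203 identifiers matched GENCODE release 29. Libraries were grouped by title and numbered in accession order. The titles were InputSZ and RIPSZ for the libraries numbered 1, and InputZ and RIPZ for those numbered 2. Whether the suffixes SZ and Z mark pairs, a condition or only replicates is not stated.

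The filter asked for 1 FPKM in 2 or more libraries. The comparison of RIP and input used limma 3.58.1 in R 4.3.3 on log2(FPKM + 1) (empirical Bayes with a mean-variance trend, no block, two-sided, Benjamini-Hochberg over all genes tested, threshold 0.05). The test was tested on simulated data with 200 of 12360 genes changed. It recovered 56% of 4-fold and 94% of 8-fold changes. A larger share of genes was called in the deposited data, so the rates there may differ. FPKM is relative to the library, so a group of RNAs that fills a library lowers the rest. Only 30.2% to 32.5% of low values were whole multiples of the assumed 1 read within 0.03, so no count test was run and the depths are approximate.

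Transcript features are from the longest coding transcript with at least 75% of the gene's longest coding length. The members and lists were chosen with earlier results of these data known. All 10 members are named, and from each list the genes with the smallest p, except 1 cofactor that is not reported here. The alternatives were other pseudocounts, no filter, other scalings (equal FPKM sums chosen after seeing the data), a fit without chromosomes 1 and 10, a replicate block, no trend and each library left out.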

Additional observations from a re-analysis of the deposited data

How the results depend on the processing

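Under the alternatives other than leaving out a library, the 10 mRNAs kept their direction in 90 of 90 estimates and their side of the threshold in 77. The fits with no filter, without chromosomes 1 and 10, with the replicate block and with no trend leave each log2 fold change as it was. Only the other pseudocounts and scalings could change a direction. With no filter on low values 718 genes were higher, and no member was called higher or lower (0 and 0; at an unadjusted p under 0.05 they were 2 and 4). With a pseudocount of 0.1, 1 member, XRN1, was lower. After quantile normalization 3085 genes were higher and 2831 lower, so that higher genes made up 52.1% of calls, against 38.8% on the deposited values. With libraries scaled to equal FPKM sums, an alternative chosen after seeing the data, 4592 genes were higher and 1555 lower (74.7% of calls higher), no member was lower (0) and the members' median log2 fold change was 1.298. The share was 47.8% after scaling to genes outside chromosomes 1 and 10. With 1 library left out, genes higher ranged from 0 to 3515, genes lower from 0 to 3933, members higher from 0 to 3 and members lower from 0 to 4. DCP1A then ranged from -0.020 to 0.48 and EDC3 from -0.37 to 0.61 (log2 fold change), each on both sides of 0. Without a pseudocount the log2 ratio of PAN3 over PAN2 differed between RIP and input by -0.92, and with it by 0.14. With 1 library left out, the ratio differences ranged from -0.31 to 1.58 for XRN1 over XRN2, from -0.25 to 0.54 for PAN3 over PAN2 and from -1.30 to 0.48 for EDC3 over EDC4. The causes of these changes were not tested.

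With the title suffix as a replicate block, 2477 genes were higher and 3466 lower, and 2 members were higher and 3 lower. Deviations of libraries with the same number correlated with r = 0.214 across genes. The labels do not say what the suffix means, so the numbers were not taken as pairs. Depth limits PAN2 and DCP1B most, and RIP 2 was the shallowest library.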
